A study of Mus musculus with 20 samples.

Results

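Groups labelled by dietary vitamin A were compared in the retinal pigment epithelium (RPE) and choroid of *Stra6-/-* mice, which lack the membrane receptor that carries retinol from its blood carrier into cells. The comparison took every sample of that genotype, 10 of the 20 RNA-seq libraries of the study, with 5 libraries labelled VAD *Stra6-/-* set against 5 VAS *Stra6-/-* libraries. All mice were labelled C57BL/6, with *Stra6-/-* on C57BL/6J by the study's methods, and were raised on standard chow until weaning at about 28 days. For the next 12 weeks they were fed a vitamin A sufficient (VAS) diet with 4 IU of vitamin A per g, or a vitamin A deficient (VAD) diet with 0 IU per g. The 10 remaining libraries, 5 VAS WT and 5 VAD WT, had the same diets in animals with an intact *Stra6* gene. By the study's methods each library pooled both eyecups of 1 mouse, from which muscle, connective tissue, the anterior segment, the vitreous and, after dispase, the neural retina had been taken off. *Stra6-/-* mice were bred in the study's own colony and WT mice were bought in, a difference that leaves the comparison within *Stra6-/-* untouched. In such bulk samples fewer cells of a type and less RNA per cell cannot be told apart.

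The 10 libraries held 16713185 to 21878614 reads, with a median of 18852880.5. Values are gene counts divided by 1 size factor per library, called normalized values here, without scaling for gene length, so levels are compared between libraries and not between genes. Of 24411 genes in the table, 18807 were tested with limma on log2(value + 1), and every fold change below is on that scale and is VAD minus VAS. Standard errors (SE) and adjusted p-values come from limma with Benjamini-Hochberg adjustment over all genes tested, with the spread pooled over all 4 groups. "Rose" and "fell" mean higher and lower in the labelled VAD libraries at an adjusted p under 0.05. In principal components of 500 genes the first axis (87.5% of the variance) split the 10 libraries by labelled diet, and the second (3.43%) set replicate 5 of the labelled VAD libraries apart from the other 4.

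The labels were checked first. *Stra6* (chromosome 9, 58063788 to 58153996 of GRCm38), the targeted gene, had normalized values of 2126, 1973, 2116, 2393 and 2208 in the libraries labelled VAD *Stra6-/-*. In the VAS *Stra6-/-* libraries it had values of 564, 599, 648, 642 and 694. The WT libraries had values of 2661, 2742, 2414, 2449 and 2689 on VAS and 693, 1340.1, 697, 1529 and 669 on VAD. Every labelled VAD library thus lay above every VAS *Stra6-/-* library, with a rise of 1.78 (SE 0.18, adjusted p = 1.88e-08), and above every VAD WT library. Summed values of the 22 RPE markers listed below took 3.18 to 3.35% of the labelled VAD libraries and 0.791 to 0.81% of the VAS *Stra6-/-* libraries. In WT the share was 0.79 to 0.912% on VAS and 0.303 to 0.551% on VAD. The values of *Stra6*, which the RPE expresses, are not set relative to these shares, and the part of RPE content in them was not tested. Reads of the gene were present in all libraries of both *Stra6-/-* groups. The VAS values overlapped those of VAD WT, where the share of RPE markers was lowest (0.303 to 0.551%). Without values set relative to RPE content, both *Stra6-/-* groups are named by their label alone. They are called the labelled VAD libraries and, for short, the VAS libraries, and the diet effect in *Stra6-/-* is the difference between groups so labelled. The Y-linked RNA helicase gene *Ddx3y* was present in all labelled VAD libraries (951, 969.7, 741, 882 and 806) and nearly absent from the VAS libraries (1.02, 0, 0, 0 and 0). *Xist*, the X-inactivation RNA of females, had values of 4239, 4231, 4279.6, 3733 and 3569.8 in the labelled VAD libraries against 16706, 16123, 18052, 15320.2 and 16038 in the VAS libraries. Each labelled VAD library held both kinds of sex-linked transcript and the VAS libraries held *Xist* with almost no Y-linked reads. A male carries Y-linked transcripts with hardly any *Xist*, and a female the reverse, so the values of the labelled VAD libraries go against the stated unit of 1 mouse per library, and n = 5 counts libraries here. It follows that diet and the sex of the animals cannot be told apart in the comparison. Standard errors and adjusted p-values measure the spread between libraries, and whether that is a spread between mice is not known. Of the 5 sex-linked genes listed, the 4 Y-linked ones rose. The 53 genes the study names gave 25 rises and 27 falls, with a median of -0.98, and were chosen on these samples.

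In the RPE, retinol that enters from the choroidal blood is esterified, isomerized and oxidized to 11-cis-retinal, the chromophore of the visual pigments, and the all-trans product of light capture returns from the photoreceptors to be used again. This circuit is the visual cycle. The same cells take up shed outer segments, store melanin, ferry sugars and ions between blood and retina, and form the outer blood-retina barrier with their tight junctions. A small part of the retinol is oxidized to retinoic acid, which binds nuclear receptors and regulates transcription.

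The labelled groups differed over much of the transcriptome. Of the genes tested, 10004 (53.2%) had an adjusted p under 0.05, with 4596 (24.4%) higher and 5408 (28.8%) lower in the labelled VAD libraries. With a log2 fold change beyond 2 as well, 315 genes (1.67%) were higher and 1392 (7.40%) lower, so large differences were mostly falls. The median log2 fold change over all genes was -0.07. These shares are the background for each gene list below, and 46 of the 48 lists are drawn together in the plot of members by list. Lists and members were chosen with earlier results of these data known, so none of the list counts is independent evidence.

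**Figure D1:**
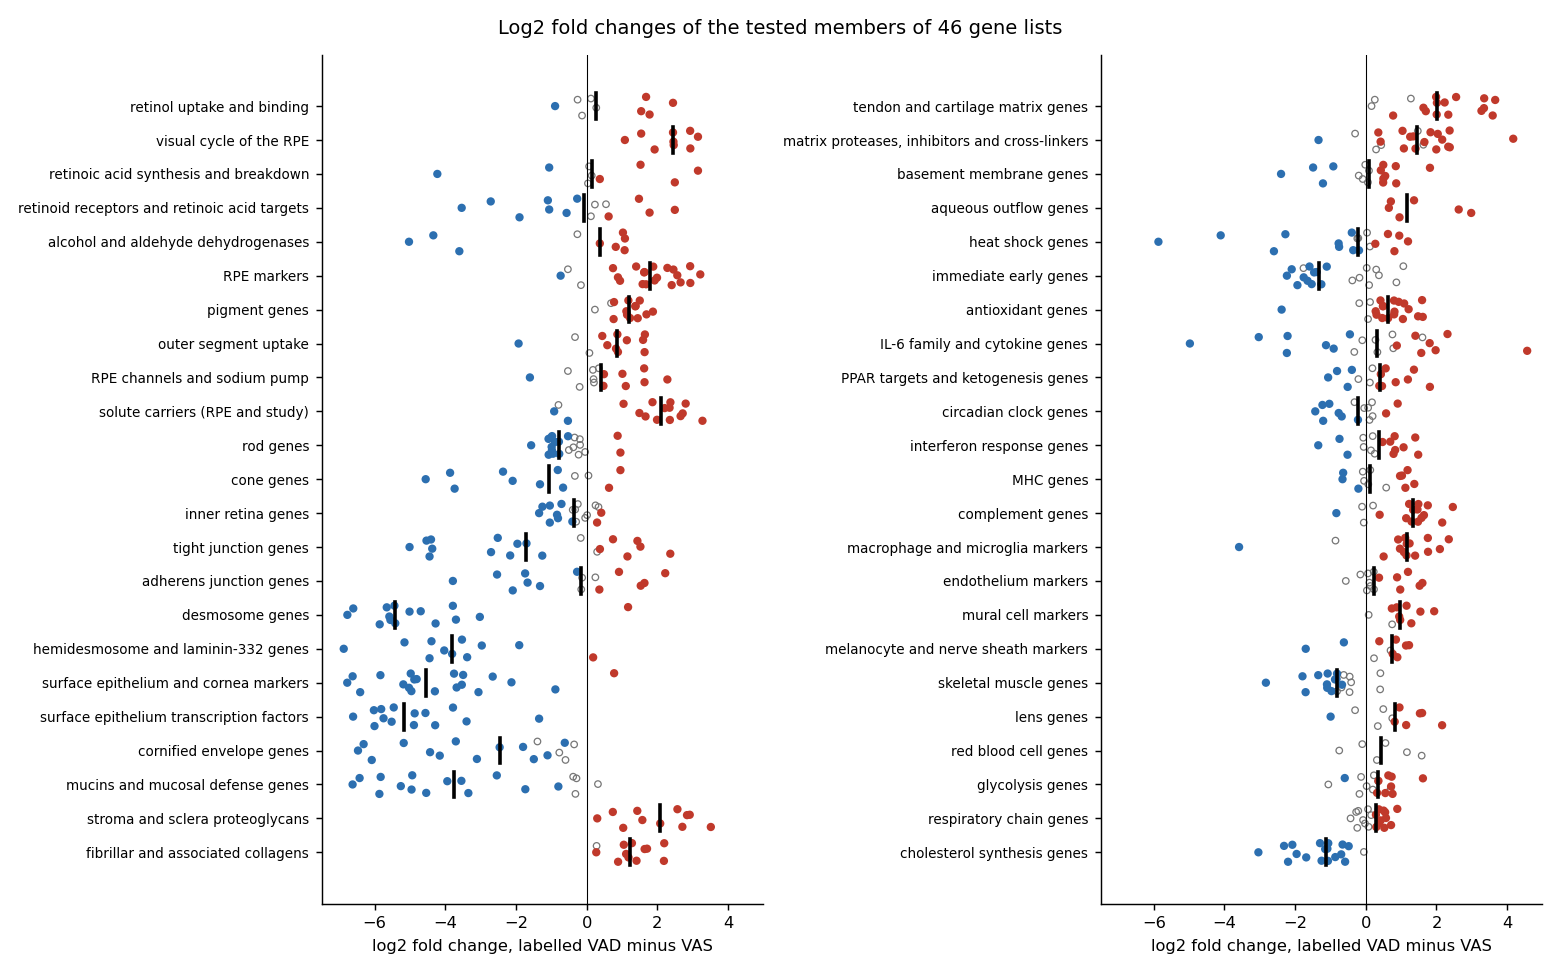
Each point is the log2 fold change (x axis, labelled VAD minus VAS) of 1 tested member of a gene list, red where it rose, blue where it fell and open where it did not pass an adjusted p of 0.05, with a black bar at the list's median. The medians ran from -5.42 in desmosome genes to 2.46 in visual cycle genes.

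Genes of the visual cycle rose together. All 9 listed genes were higher in the labelled VAD libraries, with a median log2 fold change of 2.46; the study chose 6 of the genes on these samples, so their direction is not independent evidence. *Rpe65* (chromosome 3, 159599175 to 159625321), the isomerase that makes 11-cis-retinol from retinyl esters, had values of 45030.0, 44619, 42395, 44227 and 45414 in the labelled VAD libraries. In the VAS libraries the values of *Rpe65* were 5892, 5864, 5784, 5598 and 5979.6. Its lowest labelled VAD library stood far above its highest VAS library, and the log2 fold change was 2.93 (SE 0.24, adjusted p = 1.34e-09). *Lrat* (chromosome 3, 82892579 to 82903973), which esterifies retinol to the storage form that Rpe65 uses, stood at 19902, 19917, 19838, 20082 and 18109 against 2774, 2550.4, 2481, 2514 and 2484. The groups were again wide apart, with a log2 fold change of 2.93 (SE 0.24, adjusted p = 7.35e-10). The strongest rise of the list was that of *Rdh10* (chromosome 1, 16105774 to 16133734), a retinol dehydrogenase that acts in the visual cycle and opens the path to retinoic acid. Its values were 15803, 15662, 14935, 15516 and 15395 in the labelled VAD libraries and 1733, 1779, 1732, 1747 and 1714 in the VAS libraries, a log2 fold change of 3.15 (SE 0.34, adjusted p = 6.65e-08).

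The retinal chaperone gene *Rlbp1* (chromosome 7, 79374870 to 79387048), which carries 11-cis-retinoids inside the RPE, rose from 9978 ± 467 to 54239.6 ± 1829 (mean ± SD, n = 5, as in all pairs below), and *Rgr* (chromosome 14, 37034909 to 37048964), an RPE opsin that binds all-trans-retinal, rose from 29134 ± 691 to 159852 ± 5948. *Rdh5* (chromosome 10, 128913593 to 128922888), the enzyme that makes 11-cis-retinal from 11-cis-retinol, rose from 7460.5 ± 293 to 28335 ± 2207. The log2 fold changes of these were 2.44 (adjusted p = 2.53e-09), 2.46 (adjusted p = 8.94e-12) and 1.92 (adjusted p = 2.38e-14). No labelled VAD library overlapped a VAS library in any of them. The smallest rise of the list was 1.08 in *Rdh11*, a broadly expressed retinal reductase. In WT mice the same list had a median of -1.11 for VAD against VAS, and all 9 genes differed between the genotypes in their diet effect at an adjusted p under 0.05, a threshold that 44.2% of all genes passed. For *Rpe65* the difference of the effects was 3.93 (SE 0.34, adjusted p = 6.17e-09).

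**Figure D2:**
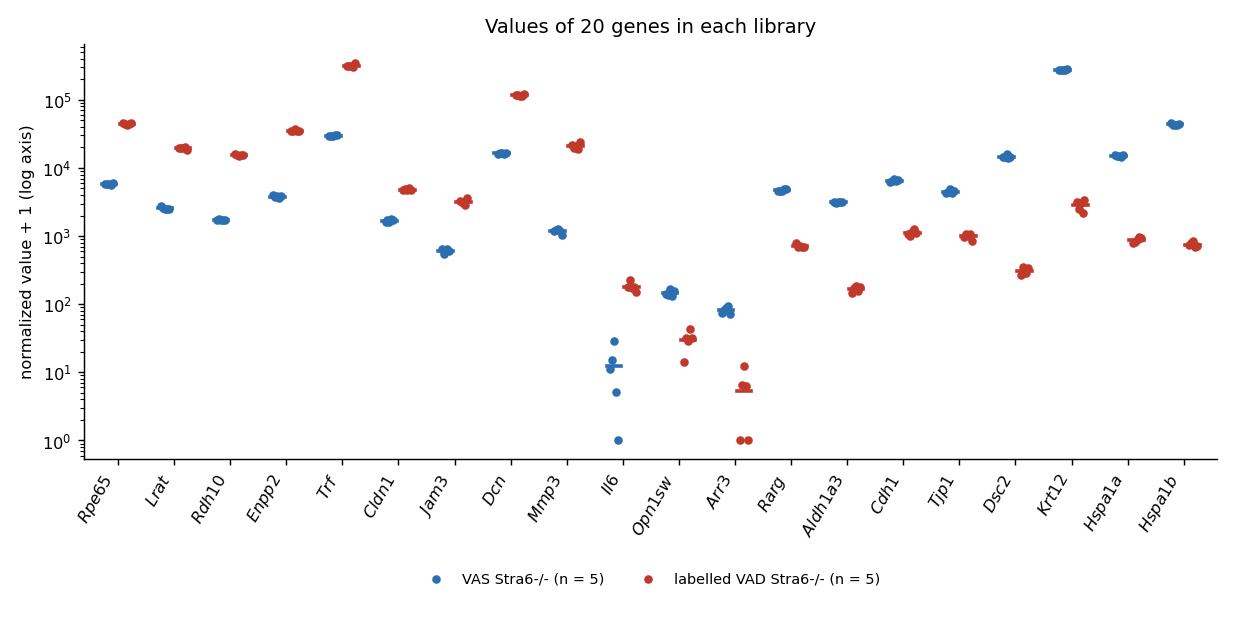
Normalized values plus 1 (log axis) of 20 genes in the 5 VAS *Stra6-/-* libraries (blue) and the 5 labelled VAD *Stra6-/-* libraries (red), with a bar at each mean. In each gene drawn the red and the blue points do not overlap, and the low values of *Il6* and *Arr3* scatter most.

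Retinol uptake and binding genes did not move as 1 block. Of 9 tested, 4 rose, *Rlbp1* and *Stra6* among them. The median was 0.27. *Rbp3* (chromosome 14, 33954003 to 33964216), the retinoid carrier of the space between photoreceptors and RPE, which is made by photoreceptors, fell from 10835 ± 498 to 5858 ± 718, a log2 fold change of -0.89 (adjusted p = 0.0143). *Rbp4*, the blood carrier of retinol, was low in both groups, at 53.0 ± 11.6 in the labelled VAD libraries and 43.7 ± 9.52 in the VAS libraries, with a log2 fold change of 0.27 and a 95% interval of -0.48 to 1.02.

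Genes that make and remove retinoic acid split. Of 9 tested, 4 rose, *Rdh10* among them, and 2 fell. The retinaldehyde dehydrogenases make retinoic acid from retinal, and of the 3 genes of this kind 1 fell and 2 rose. *Aldh1a3* (chromosome 7, 66390890 to 66427517) had values of 146, 172, 186, 156 and 177 in the labelled VAD libraries and 3126, 3099, 3192, 3139 and 3166 in the VAS libraries. With no overlap between the groups it fell by 4.23 on the log2 scale (SE 0.10, adjusted p = 9.91e-19). *Aldh1a2* (chromosome 9, 71215789 to 71296243) rose from 459 ± 40.1 to 1319 ± 94.9 (log2 fold change 1.52, SE 0.17, adjusted p = 9.87e-08), and *Aldh1a1* rose slightly, from 2218 ± 142 to 2870.3 ± 211 (log2 fold change 0.37, SE 0.15, adjusted p = 0.0389), a call lost in 8 of the 22 alternative settings. The enzymes that break retinoic acid down also parted. *Cyp26a1* (chromosome 19, 37697798 to 37701536), whose own transcription retinoic acid induces, had values of 270.0, 289, 266, 254 and 189 against 54.9, 42.8, 55.9, 55.7 and 21.6 and rose by 2.49 (SE 0.55, adjusted p = 0.000572). *Cyp26b1* fell, from 768 ± 75.8 to 367 ± 27.8, a log2 fold change of -1.06 (adjusted p = 0.0119). *Dhrs3*, which turns retinal back to retinol, showed no change past the threshold, with a log2 fold change of 0.07 and a 95% interval of -0.07 to 0.20.

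Among retinoid receptors and retinoic acid targets, 4 of 14 rose and 7 fell, with a median of -0.07. The receptor gene *Rarg* (chromosome 15, 102234938 to 102257517), the form known from epithelia and skin, had values of 798, 698, 716, 682 and 694 in the labelled VAD libraries and 4623, 4588, 4555, 4955 and 4863 in the VAS libraries. All 5 labelled VAD libraries lay below all 5 VAS libraries, with a log2 fold change of -2.72 (SE 0.14, adjusted p = 4.44e-13). *Rarb*, a receptor gene that retinoic acid induces, rose from 329.8 ± 11.6 to 509 ± 39.1, a log2 fold change of 0.62 (adjusted p = 0.000499). The partner receptor *Rxra* fell from 2688 ± 124 to 1264 ± 173, the target gene *Tgm2* (transglutaminase 2) from 6442 ± 183 to 1725 ± 81.7 and the corepressor gene *Nrip1* from 599 ± 61.8 to 55.8 ± 24.8, with log2 fold changes of -1.10 (adjusted p = 4.13e-10), -1.90 (adjusted p = 2.53e-10) and -3.54 (adjusted p = 3.59e-07). *Rarres2*, which encodes the secreted attractant chemerin, rose from 768 ± 53.5 to 2143 ± 142, a log2 fold change of 1.48 (adjusted p = 6.48e-09). Of the 4 that rose, *Stra6* and *Cyp26a1* are given above.

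The general alcohol and aldehyde dehydrogenases also split. *Aldh3a1* (chromosome 11, 61207537 to 61218421), the crystallin-like aldehyde dehydrogenase of the corneal epithelium, fell from 178957 ± 3118 to 5507 ± 648 (log2 fold change -5.03, SE 0.25, adjusted p = 2.97e-13). The retinol-oxidizing alcohol dehydrogenases *Adh7* and *Adh1* fell from 8419 ± 229 to 415 ± 31.1 and from 13731 ± 285 to 1129.5 ± 72.1, with log2 fold changes of -4.34 and -3.60 (adjusted p = 4.56e-14 and 4.08e-13). The other 5 called genes of the 9 tested rose, none by more than 1.08, the value of the mitochondrial *Aldh2* (5746 ± 265 to 12168 ± 511). The rest were *Aldh1a1*, *Aldh9a1*, *Aldh3a2* and *Adh5*, with log2 fold changes of 0.82, 1.03 and 1.07 for the last 3. The median of the list was 0.37.

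Markers of the RPE rose as a set. Of 22 tested, 19 rose and 1 fell, with a median of 1.78, and 4 of them are named by the study on these samples. Of the 22, 13 also stand in other lists, with *Rpe65*, *Lrat*, *Rdh5* and *Rgr* in that of the visual cycle, so these lists are not separate evidence. Summed values of the 22 markers took 3.18 to 3.35% of each labelled VAD library and 0.791 to 0.81% of each VAS library, and no defining marker was at 0 in either group. *Enpp2* (chromosome 15, 54838901 to 54952892), the RPE's secreted lysophospholipase D, had values of 35285, 35286, 36853, 35051 and 34369 in the labelled VAD libraries and 4018, 3697, 3874, 3581 and 3878 in the VAS libraries. The groups did not overlap, and the log2 fold change of 3.22 (SE 0.10, adjusted p = 3.01e-16) was the largest of the list. Other markers of the list moved too: *Krt18*, a simple epithelial keratin, rose from 3168 ± 51.7 to 11766 ± 1585 and *Otx2*, a transcription factor of RPE identity, from 1670.1 ± 106 to 4999.9 ± 199.7, with log2 fold changes of 1.88 (adjusted p = 1.51e-11) and 1.58 (adjusted p = 2.77e-13). The matrix protein gene *Efemp1* was the single one to fall, from 4854 ± 275 to 2911 ± 169 (log2 fold change -0.74, SE 0.18, adjusted p = 0.00139). *Best1*, the RPE's calcium-activated chloride channel, was low in both groups (23.6 ± 5.25 and 34.1 ± 4.98) and gave a log2 fold change of -0.53 with an interval of -1.34 to 0.27. *Ezr*, the apical linker ezrin, gave -0.16 with an interval of -0.38 to 0.06. *Trf* (chromosome 9, 103204001 to 103230444), the iron carrier transferrin, stood at 311697, 309778, 313274, 301804 and 348847 against 29014, 29671, 29211, 30095 and 30282, a log2 fold change of 3.42 (SE 0.19, adjusted p = 1.76e-12).

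Pigment genes rose as well, by less. Of 14 tested, 12 rose and none fell, with a median of 1.20. They are active both in the RPE and in the melanocytes of the choroid. *Dct* and *Tyrp1*, enzymes of melanin synthesis, rose from 30038 ± 591 to 78481 ± 3123 and from 16953 ± 305 to 38417 ± 1058. The melanosome scaffold gene *Pmel* rose from 24448 ± 1014 to 54007 ± 2809, and *Gpnmb*, a melanosome and lysosome glycoprotein, from 13996 ± 276 to 39664 ± 1241. Their log2 fold changes were 1.38 (adjusted p = 3.07e-06), 1.18 (adjusted p = 0.000153), 1.14 (adjusted p = 6.93e-06) and 1.50 (adjusted p = 1.03e-06). Those not called were *Mc1r* (0.23, interval -0.35 to 0.82) and *Mlph* (0.69, interval 0.02 to 1.35). A known regulator of pigment genes is the basic helix-loop-helix factor Mitf. Its gene rose from 1126 ± 35.7 to 2172 ± 185 (0.94, adjusted p = 0.00135), less than the median of 1.78 of the RPE markers, among which it is listed. The part of Mitf in the rises was not tested. Promoters of the pigment genes were read from RefSeq on GRCm38.p6. They were searched on both strands for the M-box TCATGTG in the 250 bases before the start. A promoter was at hand for 9 of the 14 pigment genes, and 5 of them held the motif, against 3.25% of 32851 promoters and 3.72% of 27025 genes. Of these 5, 4 rose and *Mc1r* did not pass the threshold. Of the genes with a promoter but no motif, *Oca2* (1.44), *Rab27a* (1.23) and *Gpnmb* (1.50) rose and *Mlph* did not pass. The stretches that hold it in *Tyrp1* (150 bases) and *Dct* (250 bases) are shown with the motif, or its reverse complement CACATGA, in capitals, 5′ to 3′ on the strand of the gene, ending at the base before its start. A match of letters shows neither binding nor a cause.
Tyrp1, chr4:80834063-80834212, plus strand: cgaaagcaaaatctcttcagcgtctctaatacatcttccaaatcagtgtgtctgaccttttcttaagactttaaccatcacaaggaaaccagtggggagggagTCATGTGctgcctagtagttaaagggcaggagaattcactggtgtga
Dct, chr14:118052247-118052496, minus strand: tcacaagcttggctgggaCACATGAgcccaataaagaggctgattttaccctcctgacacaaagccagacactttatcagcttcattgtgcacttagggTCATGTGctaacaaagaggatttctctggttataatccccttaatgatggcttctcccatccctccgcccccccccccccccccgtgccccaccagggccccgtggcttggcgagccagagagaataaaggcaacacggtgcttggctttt

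Genes for the uptake of outer segments, the daily ingestion of shed photoreceptor tips, rose in 9 of 12 cases, with a median of 0.85. The receptor subunit gene *Itgav*, which tethers outer segments, rose from 2387 ± 209 to 7470.2 ± 521, *Gas6*, a soluble ligand of the receptor kinase Mertk, from 6855 ± 173 to 12209 ± 771, and the lysosomal protease gene *Ctsd*, which digests them, from 27884 ± 703 to 84377 ± 5621. The log2 fold changes were 1.65 (adjusted p = 1.97e-13), 0.83 (adjusted p = 0.000344) and 1.60 (adjusted p = 6.22e-12). *Mertk*, the receptor kinase without which uptake fails, rose by 0.88 (adjusted p = 9.26e-06). *Mfge8*, the soluble bridge to the integrin, gave 0.08 (interval -0.19 to 0.35). The fall of *Anxa2*, an actin-binding annexin also abundant in surface epithelia, from 35674 ± 515 to 9388 ± 508 (log2 fold change -1.93, SE 0.18, adjusted p = 9.16e-09) was the only one among the 12.

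Ion channels and pumps of the RPE moved in part. Of 14 tested, 7 rose and 1 fell, with a median of 0.41. *Kcnj13*, the apical inward rectifier potassium channel, rose from 1273 ± 66.0 to 6200.3 ± 299, a log2 fold change of 2.28 (adjusted p = 5.62e-12). Within the sodium pump, the beta subunit gene *Atp1b1* rose from 3159 ± 83.3 to 9829.6 ± 301 (1.64, adjusted p = 1.2e-06), while *Atp1b3* gave 0.18 (interval -0.17 to 0.52) and did not pass the threshold. *Cftr*, the epithelial chloride channel, fell between low values, from 19.2 ± 5.88 to 9.30 ± 8.99 (-1.61, adjusted p = 0.0453), a call lost in 12 of 22 settings and down to -0.94 without replicate 5 of the labelled VAD libraries.

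Solute carriers mostly rose. Of 16 tested, 13 rose and 2 fell, with a median of 2.10; the study picked 7 of them on these samples. *Slco1c1* (chromosome 6, 141524368 to 141570177), a thyroxine transporter of blood-tissue barriers, had values of 2228, 2204, 2204, 2102 and 1879.6 in the labelled VAD libraries and 186, 234, 193, 234 and 249 in the VAS libraries. It rose by 3.28 (SE 0.13, adjusted p = 5.32e-15) with the groups fully apart. *Slc2a1* (chromosome 4, 119108711 to 119137983), the main glucose transporter of the RPE, stood at 19772, 20297, 21144, 20245 and 21927 against 7256, 7328, 7386, 7634 and 7122. Its log2 fold change was 1.49 (SE 0.08, adjusted p = 5.05e-13). The lactate carriers *Slc16a1* and *Slc16a8*, on the apical and the basal side of the RPE, rose from 1988 ± 132 to 13074 ± 659.8 and from 4896 ± 411 to 19450.4 ± 1570.1 (2.72, adjusted p = 4.78e-08 and 1.99, adjusted p = 4.16e-15). Rises of 2.66 (adjusted p = 5.2e-15) in *Slc6a20a* (proline), 2.35 (adjusted p = 4.39e-15) in *Slc7a10* (small neutral amino acids), 2.21 (adjusted p = 4.99e-13) in *Slc13a3* (dicarboxylates), 2.35 (adjusted p = 2.97e-14) in *Slc2a12* (a facilitative sugar carrier) and 2.37 (adjusted p = 2.27e-13) in *Slco1a4* (organic anions) were also found. *Slc12a2*, the sodium-potassium-chloride cotransporter, fell from 5801 ± 174 to 4016 ± 191 (-0.53, adjusted p = 3.6e-08), as did *Slc6a8*, the creatine transporter (2546 ± 77.2 to 1346 ± 67.2, -0.92, adjusted p = 1.21e-10).

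Photoreceptor transcripts, which reach an eyecup sample with retina left on it, were mostly lower. Of 12 cone genes 8 fell and 2 rose, with a median of -1.07, and 4 of them are named by the study on these samples. *Opn1sw* (chromosome 6, 29376671 to 29388468), the short-wave cone opsin, had values of 13.1, 30.7, 27.6, 43.0 and 31.3 in the labelled VAD libraries and 142, 135, 165, 130.1 and 156 in the VAS libraries. Cone arrestin, encoded by *Arr3* (chromosome X, 100605497 to 100618493), stood at 0, 5.41, 11.3, 5.27 and 0 against 72.1, 81.2, 86.4, 92.9 and 71.2. The inhibitory subunit of the cone phosphodiesterase, *Pde6h* (chromosome 6, 136923832 to 136968865), was at 4.03, 12.6, 7.17, 9.66 and 6.76 against 118, 112, 109.8, 112 and 115. In all 3 the labelled VAD libraries lay below the VAS libraries without overlap, at levels of a few reads for *Arr3* and *Pde6h*, and the log2 fold changes were -2.37, -4.56 and -3.74 (adjusted p = 5.8e-06, 7.57e-08 and 6.55e-11). *Cnga3*, the cone channel subunit, had values of 0, 0, 3.07, 0 and 0 against 3.05, 16.5, 7.12, 4.22 and 0.937, too low for a firm fold. The genes that rose were *Gnat2*, the cone transducin (170.4 ± 5.26 to 268 ± 50.6, 0.63, adjusted p = 0.000128), and *Pde6c*, the catalytic subunit of the cone phosphodiesterase (66.3 ± 18.3 to 127 ± 23.3, 0.95, adjusted p = 0.0126). *Guca1a*, a guanylate cyclase activator of rods and cones, fell from 3908 ± 231 to 1564 ± 102 (-1.32, adjusted p = 2.88e-13).

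Of 21 rod genes 12 fell and 2 rose, with a median of -0.78. Their summed values took 0.774 to 0.89% of the labelled VAD libraries and 1.22 to 1.3% of the VAS libraries. *Gnat1* (chromosome 9, 107674474 to 107679712), the rod transducin, had values of 18375, 20661, 18020.3, 20924 and 20117 against 40016, 40106, 44848, 39360.5 and 42959.5, a log2 fold change of -1.08 (SE 0.21, adjusted p = 0.000149). *Sag*, the rod arrestin, stood at 12923, 14418, 12559, 14059 and 14705 against 14189, 13814, 14225, 13625 and 14822 with overlap between the groups, and its log2 fold change of -0.04 had an interval of -0.50 to 0.42. The risers were *Abca4*, the outer segment flippase that is also made by the RPE (4726 ± 167 to 9169 ± 519, 0.95, adjusted p = 7.48e-11), and the exchanger *Slc24a1* (3947 ± 94.2 to 7248 ± 312, 0.88, adjusted p = 0.000123).

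Inner retina genes gave 8 falls and 2 rises among 18, with a median of -0.36 and a summed share of 0.296 to 0.336% against 0.287 to 0.296%. *Calb2*, calretinin of amacrine and ganglion cells, fell from 1479 ± 46.5 to 830.5 ± 103 (-0.84, adjusted p = 3.02e-09). Among Müller glia genes, *Glul*, glutamine synthetase, gave 0.25 (interval -0.03 to 0.53), *Gfap*, which glia raise on injury, 0.33 (-0.15 to 0.82), and the glutamate carrier gene *Slc1a3* rose by 0.29 (adjusted p = 0.00309).

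Many genes of cell junctions fell, and the median was lowest for those of desmosomes. A desmosome joins keratin filaments of neighbouring cells through desmogleins and desmocollins, with plakophilins, plakoglobin and desmoplakin on the inner side. Of 15 tested, 14 fell, with a median of -5.42; 7 were picked by the study on these samples. *Dsc2* (chromosome 18, 20030633 to 20059554) had values of 268, 354, 289.7, 284 and 334 in the labelled VAD libraries and 14489, 14337, 15774, 14162 and 14562 in the VAS libraries. The linker gene *Dsp* (chromosome 13, 38151294 to 38198577) stood at 1639, 1510.0, 1622, 1678 and 1453 against 39837, 39859, 43394, 40024 and 41874. Every labelled VAD library was more than 10-fold below every VAS library in both, and the log2 fold changes were -5.59 (SE 0.10, adjusted p = 3.7e-20) and -4.70 (SE 0.11, adjusted p = 2.98e-18). Means fell from 13158 ± 270.5 to 227 ± 28.3 in *Pkp1*, from 11705 ± 494 to 231 ± 14.3 in *Dsc3* and from 8918 ± 583 to 209 ± 32.3 in *Dsg1a*. *Dsg2*, the desmoglein of simple epithelia, fell from 738 ± 86.2 to 38.9 ± 14.2. The log2 fold changes of these were -5.86, -5.66, -5.42 and -4.28 (adjusted p = 1.52e-17, 2.57e-16, 5.57e-15 and 3.5e-14). Also down were *Jup* (plakoglobin, -3.79, adjusted p = 4.56e-14), *Ppl* (periplakin, -5.55, adjusted p = 1.4e-16) and *Perp* (-3.02, adjusted p = 1.02e-09). *Pkp2*, the plakophilin of heart and simple epithelia, was the 1 member that rose, from 217 ± 16.6 to 490.5 ± 56.5 (1.17, adjusted p = 3.79e-06).

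Hemidesmosomes and laminin-332, which hold the basal cells of stratified epithelia to their basement membrane, followed: 10 of 11 fell, with a median of -3.81, and the study named 7 of them on these samples, so that the direction of those is not independent evidence. The basal keratin gene *Krt5* (chromosome 15, 101707070 to 101712898) had values of 7130.2, 6738, 7377, 6495 and 8438 against 256772, 253786, 248808, 263984 and 262838, and its partner *Krt14* fell from 30047 ± 909 to 2616 ± 340.2. The integrin genes *Itga6* and *Itgb4* fell from 6671 ± 175 to 644 ± 90.6 and from 3867 ± 72.4 to 238 ± 40.4. Log2 fold changes were -5.16 (adjusted p = 3.54e-13), -3.53 (adjusted p = 9.53e-18), -3.38 (adjusted p = 1.78e-17) and -4.03 (adjusted p = 3.59e-17). The laminin-332 chains *Lama3* (-4.45, adjusted p = 5.15e-14) and *Lamb3* (-4.39, adjusted p = 1.13e-15) and the linker *Plec* (-2.97, adjusted p = 5.47e-19) fell too. *Cd151*, a widely expressed tetraspanin, rose slightly, from 2908 ± 139 to 3300.2 ± 152 (0.18, adjusted p = 0.00726).

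Tight junction genes divided into falls and rises. Of 19 tested, 11 fell and 6 rose, with a median of -1.70, and 5 of them are named by the study on these samples. The claudin gene *Cldn4* (chromosome 5, 134945119 to 134946934) had values of 402, 446, 488, 408 and 314 in the labelled VAD libraries and 8538, 8524, 7976, 9385 and 8943 in the VAS libraries, and *Cldn3* (chromosome 5, 134986214 to 134987472) stood at 26.2, 42.4, 54.2, 54.4 and 59.2 against 942, 983, 922, 1038 and 929. The scaffold gene *Tjp1* (chromosome 7, 65296165 to 65527781), which encodes ZO-1, was at 962, 1085, 1016, 1083 and 859 against 4266, 4366, 4893, 4268 and 4633. None of these groups overlapped, and the log2 fold changes were -4.41, -4.37 and -2.17 (adjusted p = 6.73e-19, 1.67e-12 and 8.97e-14). The adhesion molecule gene *F11r* (JAM-A) fell by 2.71 (adjusted p = 1.45e-13). Against these, *Jam3* (chromosome 9, 27097384 to 27155421), which encodes JAM-C, had values of 3223, 3137, 3009, 2839 and 3613 against 650.1, 553, 614, 644 and 599, a rise of 2.37 (SE 0.14, adjusted p = 3.45e-12), and *Cldn1* rose from 1681 ± 73.5 to 4824 ± 129 (1.52, adjusted p = 2.42e-07). *Cldn19*, the claudin known from the RPE, rose from 164 ± 32.4 to 271 ± 15.7 (0.74, adjusted p = 0.00371), and *Cgnl1*, a cingulin-like adaptor, gave -0.17 (interval -0.37 to 0.03).

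Adherens junctions were mixed as well, with 7 falls and 5 rises among 15 genes and a median of -0.15. E-cadherin, *Cdh1* (chromosome 8, 106603351 to 106670246), had values of 1066, 997, 1166, 1274 and 1101 against 6327, 6328, 6831, 6361 and 6601 and fell by 2.54 (SE 0.12, adjusted p = 2.05e-13). P-cadherin, *Cdh3*, the cadherin of the RPE, went the other way, from 729.9 ± 60.3 to 2278 ± 305 (1.64, adjusted p = 6.98e-07), as did the mesenchymal cadherins *Cdh11* (454 ± 70.4 to 2110.5 ± 178, 2.22, adjusted p = 3.35e-07) and *Cdh2* (0.91, adjusted p = 0.00136) and the nectin gene *Pvrl3* (1.53, adjusted p = 3.09e-10). The catenins differed among themselves: *Ctnnb1* rose by 0.36 (adjusted p = 0.000298), *Ctnnd1* fell by 1.32 (adjusted p = 4.99e-13) and *Ctnna1* gave -0.13 (interval -0.31 to 0.05).

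Markers of the surface epithelium of the eye and of the cornea moved with the junction genes. All but 1 of the 20 listed markers fell, with a median of -4.55. Their summed values took 0.149 to 0.186% of each labelled VAD library and 4.38 to 4.53% of each VAS library. In the WT groups the share was 3.69 to 4.24% on VAS. On VAD it was 2.3 and 2.26% in replicates 2 and 4, and 5.15 to 5.32% in replicates 1, 3 and 5. The labelled VAD libraries thus held the lowest shares of all 20 libraries. No marker was at 0 throughout a group. *Krt12* (chromosome 11, 99415666 to 99422259), the keratin of the corneal epithelium, had values of 3140.4, 2472, 3029.8, 2179 and 3433 in the labelled VAD libraries and 275953, 271708, 278386, 278383 and 283743 in the VAS libraries. It fell by 6.62 (SE 0.30, adjusted p = 7.83e-14). The progenitor keratin gene *Krt15* fell from 107625 ± 2568 to 8019 ± 985 and the stress keratin gene *Krt6a* from 94583 ± 2208 to 2997 ± 135 (-3.75, adjusted p = 1.41e-14 and -4.98, adjusted p = 8.54e-18). *Gjb6*, a gap junction connexin also known from glia, was the member that rose, from 402 ± 22.6 to 691 ± 49.6 (0.78, adjusted p = 0.000125). The part of these markers in the falls of junction genes was not tested.

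**Figure D3:**
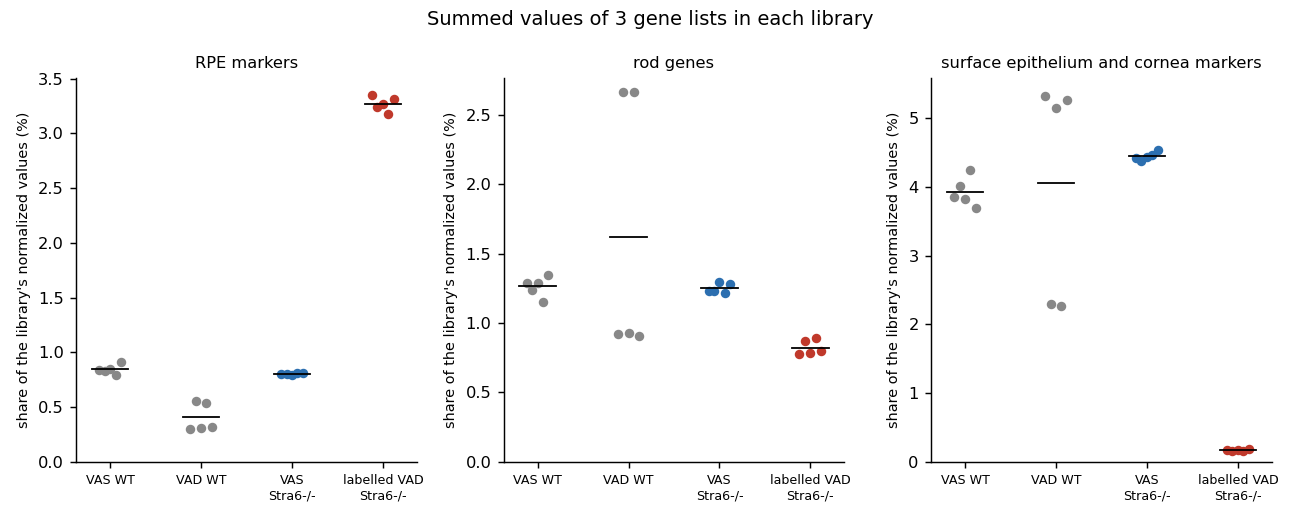
Summed normalized values of 3 gene lists as a share of each library (y axis, %), with 1 point per library, 5 libraries per group and a bar at the mean. RPE markers were highest, and surface epithelium and cornea markers lowest, in the libraries labelled VAD *Stra6-/-*.

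Other genes of stratified epithelia fell as well. All 14 listed transcription and splicing factors of surface epithelia fell, with a median of -5.18. *Elf3* fell from 12195 ± 366 to 411 ± 22.8 and *Klf4* from 11790.1 ± 233 to 605 ± 68.0, with log2 fold changes of -4.89 and -4.29 (adjusted p = 2.18e-15 and 8.14e-14). *Pax6*, which the retina also expresses, fell by 1.35 (adjusted p = 4.72e-06), the smallest fall of the list. Of 17 cornified envelope genes 13 fell and none rose, with a median of -2.46, or -3.68 by edgeR. The cross-linking enzyme gene *Tgm1* fell from 2387 ± 53.4 to 849 ± 85.1 (-1.50, adjusted p = 3e-12) and the keratinocyte gene *Scel* from 7357 ± 567 to 410.2 ± 12.5 (-4.16, adjusted p = 5.57e-15). Mucins and mucosal defense genes fell in 14 of 18 cases, with none higher and a median of -3.75, or -3.69 with the 4 genes at or under 3 reads in 1 group set to their bounds, and from -4.54 (group mean of at least 10) to -2.78 (4 added in place of 1) over the alternatives. The membrane mucin gene *Muc4* (chromosome 16, 32735886 to 32782391), which coats the ocular surface, had values of 345, 398, 452, 324 and 404 against 36031, 37506, 41576, 37242 and 36961, a log2 fold change of -6.63 (SE 0.18, adjusted p = 2.06e-17). In *Muc1* the mean fell from 2051 ± 123 to 90.2 ± 30.1 (-4.54, adjusted p = 7.79e-16).

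Genes of the extracellular matrix moved the opposite way. All 11 small leucine-rich and related proteoglycans of stroma and sclera rose, with a median of 2.08, 2 of them picked by the study on these samples. Decorin, *Dcn* (chromosome 10, 97479609 to 97518143), which coats collagen fibrils and spaces them, had values of 117749, 118721, 114407, 112126 and 123369.9 in the labelled VAD libraries and 16050.0, 16544, 16634, 16246 and 16396 in the VAS libraries. Lumican, *Lum* (chromosome 10, 97565128 to 97572703), stood at 10585, 10546, 10215, 10341 and 9783 against 2402, 2529.6, 2497, 2406 and 2329. Neither showed overlap, and the rises were 2.84 (SE 0.26, adjusted p = 5.36e-09) and 2.08 (SE 0.16, adjusted p = 4.01e-10). Biglycan, *Bgn*, and fibromodulin, *Fmod*, rose by 1.43 (adjusted p = 1.15e-05) and 1.58 (adjusted p = 0.000411). Of 12 fibrillar and associated collagens 11 rose and none fell, with a median of 1.23. *Col1a1* and *Col1a2*, the chains of type I collagen, rose from 6452 ± 243 to 20104 ± 659.6 and from 7071 ± 109.9 to 32176 ± 587 (1.64, adjusted p = 9.35e-06 and 2.19, adjusted p = 2.79e-06), and *Col11a1*, a fibril nucleator, from 264 ± 26.6 to 1211 ± 133 (2.19, adjusted p = 1.95e-09). *Col5a3* was the one not called (0.28, interval -0.03 to 0.59).

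Genes of tendon and cartilage matrix rose in 14 of 17 cases and fell in none, with a median of 2.01, and 4 of them are named by the study on these samples. *Comp* (chromosome 8, 70373558 to 70382066), the oligomeric matrix protein of cartilage, had values of 6687, 6521, 6843, 6162 and 7168 against 657, 701, 522, 771 and 653, and *Thbs4* (chromosome 13, 92751590 to 92794818), thrombospondin 4, stood at 11649.9, 11506, 12493, 11927 and 11657 against 1969.6, 2074, 1954, 1975 and 2094. In *Comp* the rise was 3.34 (SE 0.49, adjusted p = 5.11e-06) and in *Thbs4* 2.56 (SE 0.54, adjusted p = 0.000413). *Tnmd*, tenomodulin of tendon cells, rose from 299 ± 27.3 to 3789 ± 90.0 (3.66, adjusted p = 7.7e-09), *Chad*, chondroadherin, from 756 ± 39.9 to 9119 ± 309 (3.59, adjusted p = 2.36e-05), and *Thbs1* from 4725 ± 191 to 18783 ± 816 (1.99, adjusted p = 0.000175). *Matn3* (matrilin 3) and *Emilin3* rose from 22.9 ± 9.69 to 216 ± 39.3 and from 20.4 ± 6.49 to 83.3 ± 12.9 (3.27, adjusted p = 6.09e-07 and 2.01, adjusted p = 2.57e-06). Sclera lies directly behind the choroid, and no measure of how much of it each eyecup kept was at hand.

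Matrix proteases, inhibitors and cross-linkers gave 16 rises and 1 fall among 22, with a median of 1.44. Stromelysin, *Mmp3* (chromosome 9, 7445822 to 7455975), which cleaves proteoglycans, had values of 21829, 19829, 21326, 19249 and 23788 in the labelled VAD libraries and 1176, 1212, 1271, 1173 and 1036 in the VAS libraries. The groups were separated by more than 10-fold, with a rise of 4.17 (SE 0.43, adjusted p = 3.87e-08). Macrophage elastase, *Mmp12*, rose from 132 ± 25.8 to 678 ± 39.6, the RPE's own protease inhibitor *Timp3* from 19837 ± 672 to 88874 ± 4614, and the collagen cross-linker *Loxl4* from 126 ± 28.9 to 645 ± 56.9 (2.37, adjusted p = 4.17e-10, 2.16, adjusted p = 8.72e-06 and 2.38, adjusted p = 9.08e-10). *Mmp15*, a membrane-bound protease, was the member that fell, from 737 ± 29.2 to 294 ± 49.9 (-1.34, adjusted p = 2.64e-09). Basement membrane genes were divided, 8 up and 4 down of 17, with a median of 0.09. Those that fell were the laminin chain *Lama5* (2982 ± 49.1 to 569.5 ± 81.1, -2.40, adjusted p = 9.03e-13), *Agrn* (-1.49, adjusted p = 1.87e-10), *Hspg2* (perlecan, -0.92, adjusted p = 4.14e-05) and *Lama1* (-1.21, adjusted p = 0.0061), while *Col18a1* and *Lamb2*, both of Bruch's membrane, rose by 0.49 (adjusted p = 0.000788) and 0.49 (adjusted p = 0.00276). Type IV collagen *Col4a1* gave 0.06 (interval -0.49 to 0.61). Genes of the aqueous outflow tract all rose, 6 of 6, with a median of 1.16: myocilin, *Myoc*, from 4194 ± 113 to 33206 ± 1839.9 (2.98, adjusted p = 4.95e-05), and *Angptl7* from 907 ± 75.4 to 5607 ± 230.1 (2.63, adjusted p = 5.76e-08).

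**Figure D4:**
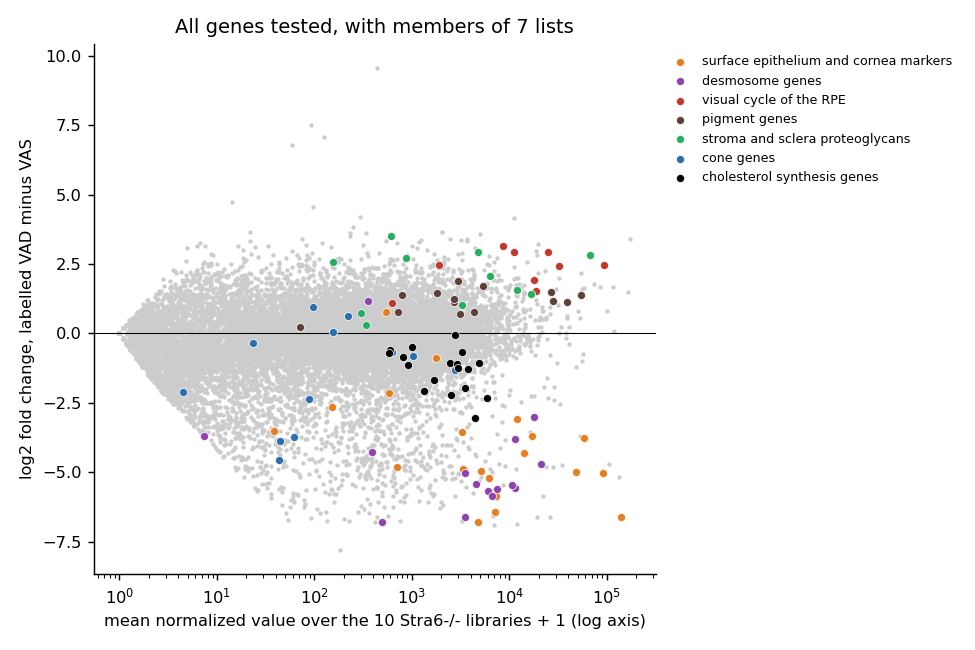
Log2 fold change (y axis, labelled VAD minus VAS) against the mean normalized value plus 1 over the 10 libraries (log axis) for all 18807 genes tested, in grey, with the tested members of 7 lists in colour. Surface epithelium, cornea and desmosome genes lie mostly far below 0, and visual cycle and proteoglycan genes lie above 0.

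Heat shock genes split. Of 18 heat shock genes 9 fell and 5 rose, with a median of -0.23. The inducible Hsp70 gene *Hspa1b* (chromosome 17, 34956436 to 34959238) had values of 746, 778, 832, 686 and 706 in the labelled VAD libraries and 45557, 42087, 43342, 43398 and 44525 in the VAS libraries. Its near-identical neighbour *Hspa1a* (chromosome 17, 34969190 to 34972156) stood at 794, 831, 879, 964 and 935 against 15749, 14783, 15208, 14644 and 15398. The log2 fold changes were -5.87 (SE 0.09, adjusted p = 3.07e-21) and -4.11 (SE 0.07, adjusted p = 4.1e-21), and since reads of the pair can be assigned to either copy, their summed mean, 1630.0 against 58938, is given as well. The small chaperone *Hspb1* fell from 15278 ± 315 to 2525 ± 212 and the cochaperone *Dnajb1* from 4791 ± 131 to 992 ± 94.5 (-2.60, adjusted p = 5.3e-09 and -2.28, adjusted p = 7.53e-17). *Hspa8*, the constitutive Hsc70, rose from 30711 ± 1202 to 47576 ± 4530.1 (0.63, adjusted p = 4.16e-05), *Hsp90aa1* from 14914 ± 1013 to 28776 ± 2175 (0.95, adjusted p = 4.78e-07) and the collagen chaperone *Serpinh1* from 3706 ± 45.5 to 8501 ± 556 (1.20, adjusted p = 4.19e-08). The other risers were *Hspb8* (0.81, adjusted p = 2.91e-07) and *Ahsa1* (0.27, adjusted p = 0.00302).

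Heat shock factors bind inverted repeats of GAA, and the promoters of the list were searched for GAANNTTC on both strands in the 250 bases before the start. A promoter was at hand for 14 of the 18 genes, and 6 held the motif, against 6.69% of the 32851 promoters and 7.73% of the 27025 genes. Of these 6 genes, *Hspa1a*, *Hspa1b* and *Hspb1* fell, while *Dnaja1* (-0.21, interval -0.43 to 0.01), *Hspd1* (0.12, interval -0.03 to 0.26) and *Hspe1* (-0.24, interval -0.54 to 0.06) did not pass the threshold. Without the motif in a promoter at hand, *Dnajb1* (-2.28), *Hsph1* (-0.77), *Bag3* (-0.76) and *Chordc1* (-0.40) fell, and *Hspb8*, *Ahsa1* and *Serpinh1* rose. A match of letters shows neither binding nor a cause. For *Hspa1a*, *Hspa1b* and *Hspb1* the 150 bases before the start are shown from GRCm38.p6 (RefSeq), 5′ to 3′ on the strand of the gene, with the motif in capitals. The stretches of *Hspa1a* and *Hspa1b* are the same in 149 of 150 bases.
Hspa1a, chr17:34972157-34972306, minus strand: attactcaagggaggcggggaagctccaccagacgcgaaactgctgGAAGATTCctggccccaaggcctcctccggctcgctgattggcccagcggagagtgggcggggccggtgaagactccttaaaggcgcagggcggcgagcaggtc
Hspa1b, chr17:34959239-34959388, minus strand: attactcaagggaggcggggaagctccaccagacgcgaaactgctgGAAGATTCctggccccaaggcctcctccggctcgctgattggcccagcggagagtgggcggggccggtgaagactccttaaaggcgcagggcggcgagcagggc
Hspb1, chr5:135887769-135887918, plus strand: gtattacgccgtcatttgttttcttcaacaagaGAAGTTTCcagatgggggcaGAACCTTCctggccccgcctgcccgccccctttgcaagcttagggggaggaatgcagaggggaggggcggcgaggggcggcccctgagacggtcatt

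Immediate early genes, which respond to many stimuli within minutes and also to the handling of tissue, fell in 11 of 20 cases and rose in none, with a median of -1.32. The AP-1 subunit genes *Jun* and *Junb* fell from 6931 ± 310.2 to 1618 ± 55.2 and from 8842 ± 384 to 2619 ± 214 (-2.10, adjusted p = 6.46e-07 and -1.76, adjusted p = 2.02e-11). *Jund* gave 0.09 (interval -0.17 to 0.36), and *Ctgf*, a matrix growth factor, 0.87 (-0.18 to 1.91). The cyclic AMP element TGACGTCA was found before 2 of the 14 listed genes with a promoter at hand, against 1.55% of promoters and 1.77% of genes. These were *Dusp1*, which fell (-1.46, adjusted p = 4.41e-05), and *Btg2*, which did not pass the threshold (0.03, adjusted p = 0.938). *Jun* and *Junb* were among the genes that fell without the element. A match of letters shows neither binding nor a cause. Antioxidant genes rose in 17 of 21 cases, with a median of 0.63. Metallothionein, *Mt1*, rose from 14729 ± 262 to 45196 ± 4104, the lipid peroxidase *Gpx4* from 12452 ± 376 to 25809.5 ± 1490.3 and the secreted *Gpx3* from 16187 ± 359 to 28415 ± 828 (1.61, adjusted p = 1.34e-13, 1.05, adjusted p = 5.28e-11 and 0.81, adjusted p = 1.98e-09). *Gsta4*, a glutathione transferase that detoxifies lipid aldehydes, was the 1 gene to fall, from 47945 ± 732 to 9216 ± 730.0 (-2.38, adjusted p = 7.07e-08).

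Cytokine genes went in both directions, 7 up and 7 down of 21, with a median of 0.33, or 0.60 without replicate 5 of the labelled VAD libraries. The ligand gene *Il6* (chromosome 5, 30013114 to 30019981) had values of 175, 227, 172, 179.9 and 149.7 in the labelled VAD libraries and 10.2, 14.3, 27.4, 4.22 and 0 in the VAS libraries. Its receptor, *Il6ra* (chromosome 3, 89864059 to 89913196), moved the other way, at 17.1, 54.1, 23.5, 53.5 and 30.4 against 156, 161, 139, 153 and 163. Neither gene showed overlap, with log2 fold changes of 4.57 (SE 0.83, adjusted p = 7.98e-05) and -2.21 (SE 0.36, adjusted p = 2.21e-05). The shared signalling chain *Il6st* gave 0.27 (interval 0.01 to 0.53), and the downstream factor *Stat3* fell by 0.45 (adjusted p = 0.00114). *Il11ra1*, the receptor of interleukin 11, rose from 1727 ± 97.2 to 6842 ± 999 (1.98, adjusted p = 3.02e-12), and *Il1a*, an alarmin stored in epithelial cells, fell from 662 ± 32.9 to 24.3 ± 15.9 (-4.98, adjusted p = 3.43e-10). Of 16 PPAR target and ketogenesis genes 8 rose and 4 fell, with a median of 0.40. *Angptl4*, the lipase inhibitor, had a log2 fold change of 0.43 (SE 0.19, adjusted p = 0.0636) at 1234, 1350.3, 1174, 1112 and 1015 against 878, 881, 868, 903 and 813. Each labelled VAD value of *Angptl4* lay above each VAS value, though the test did not pass. With the replicate block it did (adjusted p = 0.042), as it did in the fit of the 10 *Stra6-/-* libraries (adjusted p = 0.000356) and without VAD WT replicates 2 and 4 (adjusted p = 0.000441), and over the other alternatives the adjusted p was 0.0573 to 0.136. *Cpt1b*, *Ppard*, *Acadm* and *Ucp2* fell (-1.07, -0.81, -0.51 and -0.39).

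Complement genes and macrophage markers were mostly higher, while interferon response and MHC genes were mixed. Of 17 complement genes 13 rose, with a median of 1.34. The C1 inhibitor gene *Serping1* (chromosome 2, 84765387 to 84775444) had values of 11288, 10659, 11262, 10252 and 11474 against 3986, 4159, 4036, 3783 and 3756, a rise of 1.48 (SE 0.19, adjusted p = 1.21e-06) with no overlap. *C1qa*, a chain of C1q made by macrophages, rose from 1511 ± 116 to 3531 ± 161 (1.23, adjusted p = 1.33e-11). *Cd55*, a membrane-bound inhibitor, fell from 206 ± 32.6 to 116 ± 22.4 (-0.83, adjusted p = 0.000807), and *C4b* gave -0.11 (interval -0.23 to 0.02). Macrophage and microglia markers rose in 13 of 15 cases, with a median of 1.15 and a summed value of 11423 to 11866 per library against 6044 to 6490.1. The growth factor receptor gene *Csf1r* rose from 1364 ± 57.0 to 4612 ± 228 (1.76, adjusted p = 7.7e-13) and *Cd68* from 674 ± 31.1 to 1429 ± 135 (1.08, adjusted p = 5.01e-10). *Itgam*, the integrin of neutrophils and many macrophages, fell, from 2100.5 ± 128 to 174 ± 13.8 (-3.59, adjusted p = 9.27e-16). Interferon response genes rose in 8 and fell in 3 of 16 cases (*Ifit3* 1.07, adjusted p = 5e-11; falls in *Oasl2*, *Irf7* and *Stat2* of -1.35, -0.74 and -0.52), with a median of 0.36. Of 13 MHC genes 5 rose and 3 fell, with a median of 0.13. Class II genes and their chaperone *Cd74* rose (4299 ± 30.6 to 8766 ± 809, 1.02, adjusted p = 7.55e-12), and of the class I path 1 gene rose while *Tap1*, *Psmb8* and *H2-D1* fell (-0.66, adjusted p = 6.03e-06, -0.64, adjusted p = 0.00954 and -0.21, adjusted p = 0.00516).

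Markers of other cells of the posterior eye were examined as well. Endothelium markers rose in 6 of 14 cases and fell in none (median 0.23), with a summed value of 21300.3 to 22080.1 against 16218 to 17434. *Plvap*, the diaphragm protein of the fenestrated choriocapillaris, gave 0.23 (interval -0.28 to 0.74), and *Emcn* rose by 1.19 (adjusted p = 0.000191). Mural cell markers rose in 8 of 10 (median 0.96), with smooth muscle actin, *Acta2*, going from 3265 ± 83.3 to 12506 ± 748 (1.94, adjusted p = 1.48e-12) and a summed value of 26796 to 29578 against 10492 to 11012. Melanocyte and nerve sheath markers rose in 6 and fell in 2 of 10 (median 0.73), the falls being in the receptor kinase gene *Kit* (1453 ± 26.2 to 448 ± 35.9, -1.70, adjusted p = 1.13e-09) and the myelin gene *Mbp* (-0.62, adjusted p = 0.0487, lost in 13 of 22 settings), with summed values of 22458 to 24027 against 14903 to 15444.

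Skeletal muscle genes fell in 12 of 20 cases (median -0.82), with summed values of 28326 to 34205 against 46378 to 51579.6. The WT mice had a median of -1.01, and 1 gene of the list passed the test of a difference between the genotypes, or 14 without VAD WT replicates 2 and 4. Creatine kinase, *Ckm*, gave a log2 fold change of -0.81 (adjusted p = 0.0111). Lens genes rose in 6 of 11 cases and *Mip*, the lens aquaporin, fell (42.8 ± 7.57 to 21.1 ± 5.36, adjusted p = 0.0168), with summed values of 2583 to 3092 against 1359 to 1532 and a median of 0.82. None of the 6 red blood cell genes passed the threshold (median 0.44), at summed values of 21917 to 31284 against 13040.3 to 14681. The part of muscle, lens, sclera or retina carried over in the differences above was not tested.

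Genes of cholesterol synthesis fell together. Of 18 tested, 17 fell and none rose, with a median of -1.12. *Srebf2* (chromosome 15, 82147181 to 82205379), the transcription factor that drives the pathway, had values of 1968, 2343, 2307, 2358 and 2028 in the labelled VAD libraries and 5272, 5292, 5175, 5557 and 5661 in the VAS libraries. *Hmgcs1* (chromosome 13, 119690379 to 119708260), an early enzyme, stood at 3169.7, 3133, 2957, 3283 and 3229.9 against 6576, 6477, 6949, 6240.4 and 6706. The log2 fold changes were -1.30 (SE 0.07, adjusted p = 2.62e-12) and -1.06 (SE 0.12, adjusted p = 1.72e-07), with all labelled VAD libraries below all VAS libraries. *Fdft1*, squalene synthase, was the one not called (-0.05, interval -0.40 to 0.29).

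Energy genes shifted by less. Of 20 respiratory chain genes 11 rose and none fell (median 0.29), with *Sdha* of complex II up from 4171 ± 86.5 to 6851 ± 284 (0.72, adjusted p = 9.71e-06). Of 17 glycolysis genes 8 rose (median 0.35), among them *Aldoa* (0.55, adjusted p = 0.00344), and *Ldha* fell (11635 ± 399.6 to 7699.7 ± 241, -0.60, adjusted p = 4.17e-08) while its partner subunit *Ldhb* rose (3485 ± 108 to 10738 ± 1206, 1.62, adjusted p = 2.28e-08). The often used reference gene *Gapdh* gave 0.02 (interval -0.23 to 0.28). Clock genes fell in 7 and rose in 2 of 15 cases (median -0.22). *Nr1d1*, a repressor of the clock's loop, fell from 4042 ± 120.1 to 2377 ± 140.1 (-0.77, adjusted p = 0.000224), and the output gene *Dbp* and the repressor gene *Bhlhe41* rose (0.57, adjusted p = 0.000253 and 0.90, adjusted p = 0.00881). The time of day at which eyes were taken is not given in the sources used here.

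The largest changes in either direction, among genes with a mean of at least 200 in a group and no overlap, were as follows. Besides the Y-linked *Ddx3y* and *Eif2s3y*, the 10 largest rises held *Ptx3* (pentraxin 3, a soluble pattern receptor, 30.7 ± 12.1 to 554 ± 73.8, 4.19, adjusted p = 2.53e-07), *Pcdhac2* (a clustered protocadherin, 3.83, adjusted p = 0.0231, lost without replicate 3 of VAS at 3.18), *1500015O10Rik* (a secreted augurin peptide, 3.65, adjusted p = 1.48e-08), *Clec3a* (a cartilage lectin, 3.61, adjusted p = 4.6e-06) and *Itgb8* (an integrin that activates TGF-beta, 3.61, adjusted p = 0.000818), with *Mmp3*, *Tnmd* and *Chad* given above. The 10 largest falls were *Fam83b* (-7.80, adjusted p = 2.61e-11), *Gm9573* (-6.89, adjusted p = 7.34e-16), the hemidesmosome collagen *Col17a1* (-6.88, adjusted p = 1.21e-15), *Slc25a48* (-6.80, adjusted p = 3.38e-10), the secreted epithelial peptide *Slurp1* (-6.78, adjusted p = 3.66e-12), the desmoglein *Dsg1b* (-6.77, adjusted p = 8.48e-10), *Fam83a* (-6.75, adjusted p = 9.51e-15), *Plekhs1* (-6.75, adjusted p = 1.57e-11), *Syt8* (-6.75, adjusted p = 1.77e-09) and the lysophosphatidic acid receptor *Lpar5* (-6.74, adjusted p = 5.84e-11). *Col17a1*, *Slurp1* and *Dsg1b* are members of the epithelial lists above. *Fam83b*, *Slc25a48*, *Syt8* and *Lpar5* had no value above 22.5 in the labelled VAD libraries, where the added 1 limits the size of a fold change.

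The diet effect in *Stra6-/-* was set against the effect of the same diets in WT mice, where the groups share no library with it. Sex-linked transcripts also differed among the WT libraries. *Xist* had values of 175, 10912, 194, 11767 and 234.0 in VAD WT against 18.6, 7.69, 15.6, 19.5 and 38.4 in VAS WT, and *Ddx3y* stood at 1041, 75.2, 1064, 80.5 and 1133 against 1193, 981, 1081, 1190.2 and 1102. Replicates 2 and 4 of VAD WT were thus high in *Xist* and low in *Ddx3y*, though not as low as VAS *Stra6-/-* (at most 1.02). Replicates 1, 3 and 5 held more *Xist* than any VAS WT library. Whether each VAD WT library is 1 mouse is therefore not known. Diet and sex cannot be told apart in the difference of the effects either. The difference of the effects passed an adjusted p of 0.05 in 8319 of 18807 genes (44.2%). Replicates 2 and 4 of VAD WT stood apart from the other 3 of that group, and without them the count was 10286. For *Lrat* the effect was 2.93 in *Stra6-/-* and -1.88 in WT (difference 4.81, SE 0.33, adjusted p = 1.57e-10), and for *Trf* it was 3.42 and -1.64 (difference 5.06, adjusted p = 2.44e-12). *Dsc2*, at -5.59 and -0.27, and *Hspa1b*, at -5.87 and 0.16, differed by -5.31 and -6.03 (adjusted p = 2.45e-16 and 1.83e-18). These 4 differences passed without VAD WT replicates 2 and 4 as well. For the type I collagen gene *Col1a1* the effects were 1.64 and 1.44, a difference of 0.20 that did not pass with all libraries (adjusted p = 0.679). Without replicates 2 and 4, a choice made after the data were seen, the WT effect was 0.80 and the difference of 0.84 passed (adjusted p = 4.51e-10). *Angptl7*, at 2.63 and 2.26, gave a difference of 0.37 (adjusted p = 0.479), and without those libraries 1.07 (adjusted p = 1.88e-07). In *Ckm*, at -0.81 and -1.17, the difference went from 0.35 (adjusted p = 0.466) to 1.00 (adjusted p = 2.46e-08) in the same way, so the outcome of the test rests on these 2 libraries in all 3 genes.

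**Figure D5:**
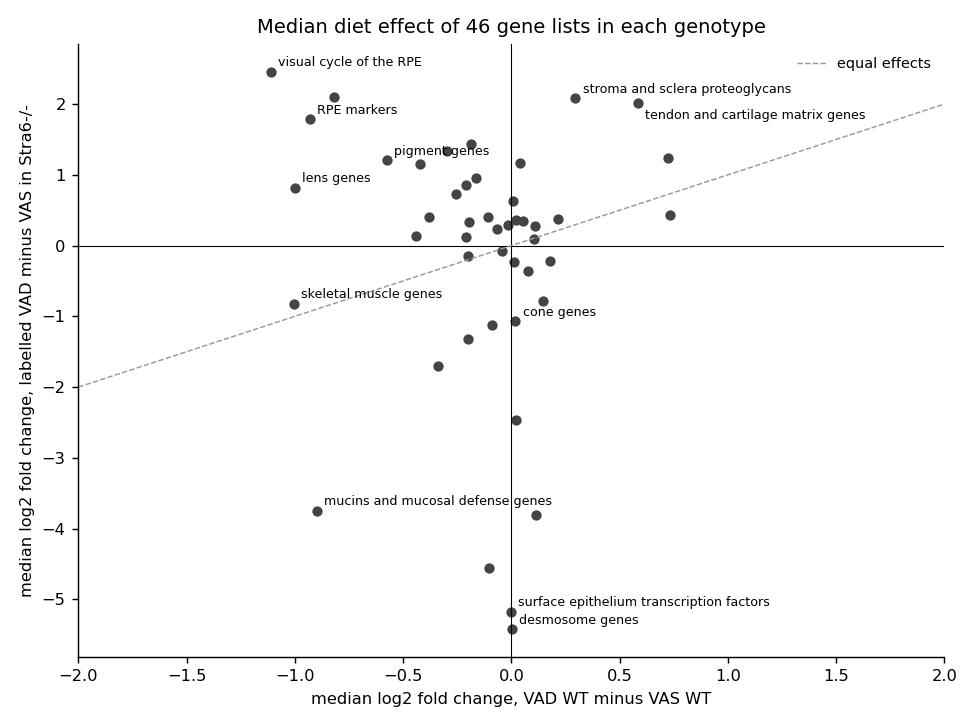
Each point is the median log2 fold change of the tested members of 1 of 46 gene lists, for VAD WT minus VAS WT (x axis) and for labelled VAD minus VAS in *Stra6-/-* (y axis), with the dashed line at equal effects. List medians in WT lie between -1.11 and 0.73, while those in *Stra6-/-* run from -5.42 to 2.46.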

How the data were processed

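RNA-seq was run on RPE and choroid from 20 eyecup samples, 5 per diet and genotype, each described in the study's methods as both eyecups of 1 mouse. The deposited signal values are gene counts that the authors divided by 1 size factor per library; the submitters' processing notes name STAR 2.5.3a, RSEM 1.2.30 and DESeq2 1.32.0 with GRCm38 (mm10). Whole reads were recovered from the steps of the values for 19 libraries (100.0% of values whole within 0.01 read), and labelled VAD *Stra6-/-* replicate 1, whose values step by so nearly 1 that recovery is not claimed although they came out as whole, was left out of count tests. Genes with at least 5 recovered reads in total (18807 of 24411) were tested with limma 3.58.1 in R 4.3.3 (trend, log2(value + 1), 4 group means, 20 libraries, Benjamini-Hochberg). The diet effect was VAD minus VAS within *Stra6-/-*, and the interaction was that effect minus the WT effect. edgeR 4.0.16 and DESeq2 1.42.0 on 19 libraries were alternatives. The fit was tested on simulated data. Samples were grouped by their labels. Members, lists and tests were chosen with earlier results of these data known. Named genes were *Stra6*, those the study names, up to 4 of highest mean value per list, and the 10 largest rises and falls. Among the genes named, 65 fall outside this rule and were chosen after their values were seen, as were all single exceptions named within a list. Values of some listed genes are not reported here. Labels do not say whether the mice of a group were littermates. P-values measure the spread between these libraries, which may not be that between mice, since the labelled VAD libraries go against 1 mouse per library. The VAD WT libraries also held both kinds of sex-linked transcript. RefSeq promoters (GRCm38.p6) were matched by symbol. Counting is not known to use strand, so overlapping genes are uncertain.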

Additional observations from a re-analysis of the deposited data

Results flagged for a closer look

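In 470 groups of 5 values, 2 for each gene named, 41 held a highest or lowest library set apart from the other 4 by Dixon's 95% criterion, and chance alone gives about 1 in 20 groups. Values are normalized. In labelled VAD replicate 5 the library was highest for *Aldh1a1* (3235.8), *Aldoa* (50607.3), *Atp1b3* (10838.8), *Cdh3* (2813.1), *Dct* (83850.0), *Hsp90aa1* (32582.4), *Hspa8* (55474.1), *Ifit3* (3763.4), *Jund* (7164.1), *Krt18* (14559.1), *Muc1* (142.9) and *Trf* (348847.2) and lowest for *Lrat* (18108.6). In VAS replicate 2 the library was highest for *Atp1b1* (3305.4) and *Eif2s3y* (4.39) and lowest for *Mip* (29.63). In labelled VAD replicate 3 the library was highest for *Cnga3* (3.071), *Col1a2* (33202.2) and *Rarb* (576.3). In VAS replicate 3 the library was lowest for *Ctnnb1* (12179.0), *Fdft1* (2688.4), *Pcdhac2* (4.067) and *Slc6a20a* (428.1) and highest for *Dsc2* (15774.3), *Lama3* (2854.1), *Mertk* (605), *Muc4* (41576.0) and *Otx2* (1857.7). In VAS replicate 4 the library was highest for *Dbp* (3836.0), *Plvap* (3544.6) and *Stat3* (4346.1) and lowest for *Dsc3* (10832.3). In VAS replicate 1 the library was highest for *Ddx3y* (1.016) and *Lrat* (2774.0) and lowest for *Lama1* (30.47), *Mlph* (2258.0) and *Mmp15* (685.6). In labelled VAD replicate 4 the library was highest for *Fam83a* (72.86). In labelled VAD replicate 2 the library was highest for *Fam83b* (4.51). In labelled VAD replicate 1 the library was lowest for *Stat2* (502.8). In VAS replicate 5 the library was highest for *Tgm1* (2480.6). Replicate 5 of the labelled VAD libraries held 13 of these values, the most of any library.

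The diet effect in *Stra6-/-* minus that in WT passed an adjusted p of 0.05 in limma for 5 of the 8 genes compared singly, and for all 8 without VAD WT replicates 2 and 4. On the log2 scale it was -5.31 for *Dsc2*, -6.03 for *Hspa1b*, 4.81 for *Lrat*, 3.93 for *Rpe65* and 5.06 for *Trf*.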

How the results depend on the processing

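The 6 counts over all genes were recomputed under each alternative that bears on them. Genes called in either direction ranged from 9455 (edgeR) to 11700 (fit on the 10 *Stra6-/-* libraries alone), with 9747 by DESeq2 and 11414 without VAD WT replicates 2 and 4. With a log2 threshold of 1 in place of 2, by construction more genes passed, 1599 higher and 2889 lower. Leaving out 1 *Stra6-/-* library at a time gave 9495 to 9682 called genes, 4356 to 4434 higher, 5135 to 5248 lower, 306 to 327 above 2, 1330 to 1435 below -2, and, with WT libraries left out as well, 7904 to 8852 interaction genes. The interaction count was 7947 by edgeR and 8272 by DESeq2. With the replicate block 9937 genes were called. Samples with the same number did not deviate together (correlations of 0.0022 to 0.0205, and 1 of 5 samples correlated best with its own number), so the numbers were not taken as pairs. The median of all genes moved by at most 0.0336. No named gene reversed. The calls of *Aldh1a1*, *Cftr*, *Mbp*, *Pcdhac2* and *H2-D1* were lost in 8, 12, 13, 1 and 1 settings, and the cause was not tested. Of the named genes 17 gained a call in some setting, 1 of them (*Col5a3*) without VAS replicate 1 and 16 in the fit of the 10 *Stra6-/-* libraries. These 16 were *Angptl4*, *Atp1b3*, *Best1*, *C4b*, *Cgnl1*, *Ctgf*, *Ctnna1*, *Dnaja1*, *Ezr*, *Gfap*, *Glul*, *Hspe1*, *Il6st*, *Mlph*, *Plvap* and *Xist*. All of them but *Best1* and *C4b*, 14 genes, gained it without VAD WT replicates 2 and 4 as well, and 1 (*Angptl4*) with the block. That they were not called above thus holds for the spread pooled over all 4 groups. The median of retinoic acid synthesis genes, 0.14, ran from 0.06 (without VAS replicate 5) to 0.66 (DESeq2). For low genes the added 1 limits the fold.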
